A study of Mus musculus with 18 samples.

Results

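Broad H3K4me3 domains are stretches of at least 3000 bp carrying trimethylated lysine 4 of histone H3. They were chosen on their measured width in the WT liver. The deposited H3K4me3 peak lists of 1 KO and 1 WT library were merged by an overlap of at least 1 bp on chromosomes 1 to 19 and X, which gave 17984 regions. Of these, 12561 were called in both lists, and the 999 whose WT peaks summed to at least 3000 bp were kept, leaving 11562 other shared regions. No region of that width in WT (0 of them) lacked a KO peak. A domain was assigned to each protein-coding gene whose start lay in it or within 1 kb of it. For genes without a known strand, either gene end was used instead. By that measure 924 of the 999 domains were assigned a protein-coding gene, 742 of them by a start of known strand. Another 16 touched a noncoding gene alone and 59 had no annotated gene. The name promoter domain thus fitted most of the members but not all. The 924 domains held 1083 distinct genes, which is 5.01% of the 21627 protein-coding genes on those chromosomes.

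Chromatin was profiled by ChIP-seq in the liver of C57BL/6 mice aged 8 weeks that all carried the CTCF fl/fl alleles. KO mice also carried the Albcre transgene (CTCF fl/fl Albcre+), in which the albumin promoter drives Cre in hepatocytes, and WT mice lacked it (CTCF fl/fl Albcre-). Whole liver also holds other cells, which keep CTCF. The H3K4me3 libraries were KO 4 and WT 2, the H3K27ac libraries KO 2, 3 and 4 and WT 1, 2 and 4, the PPARg libraries KO 7 and 8 and WT 2 and 4, the CTCF libraries KO160, KO163, WT164 and WT165, and the H3K27me3 libraries KO150 and WT156. Per the labels, the CTCF libraries and PPARg KO 7, KO 8 and WT 2 came from males and were made by tagmentation, whereas PPARg WT 4 and all histone mark libraries were made with a ligation kit and give no sex.

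H3K4me3 is laid down at the starts of active genes by the SET1 and MLL methyltransferases, and most active promoters carry a narrow stretch of it around the start. Unusually wide stretches are known from many tissues at genes that define the cell type and at genes under heavy signal control. CTCF is the zinc finger protein that holds chromatin loops at boundaries together with cohesin, and PPARg is a lipid-activated receptor known as the master regulator of fat cells. H3K27ac marks active promoters and enhancers, and H3K27me3 marks Polycomb repression.

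6 promoters show the range of sequence at the gene starts of these domains, 3 from domains that were at least 2-fold narrower in KO (Sult2a8, Alb and C3) and 3 from wide domains of nearly equal width in both genotypes (Klf15, Sgk1 and Jun). Each runs from 250 bases before the gene start to 50 bases after it, is given on the strand of the gene and comes from RefSeq's GRCm38.p6 table. Capitals mark every TATA box core TATAAA, every CCAAT box core and every GC box core GGGCGG found on either strand, so that some stand as their reverse complement.
Sult2a8, chr7:14446538-14446837, minus strand: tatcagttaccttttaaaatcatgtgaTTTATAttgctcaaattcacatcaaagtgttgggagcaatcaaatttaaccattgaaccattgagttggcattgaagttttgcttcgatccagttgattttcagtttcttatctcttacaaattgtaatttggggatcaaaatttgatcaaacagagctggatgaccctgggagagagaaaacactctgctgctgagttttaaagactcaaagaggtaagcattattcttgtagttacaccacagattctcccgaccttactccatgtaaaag
Alb, chr5:90460620-90460919, plus strand: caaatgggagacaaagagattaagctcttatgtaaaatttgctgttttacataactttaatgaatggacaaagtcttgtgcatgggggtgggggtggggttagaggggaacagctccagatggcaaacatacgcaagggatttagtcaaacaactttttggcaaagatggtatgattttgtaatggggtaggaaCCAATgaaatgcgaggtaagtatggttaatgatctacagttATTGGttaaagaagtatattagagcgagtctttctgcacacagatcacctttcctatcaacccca
C3, chr17:57228087-57228386, minus strand: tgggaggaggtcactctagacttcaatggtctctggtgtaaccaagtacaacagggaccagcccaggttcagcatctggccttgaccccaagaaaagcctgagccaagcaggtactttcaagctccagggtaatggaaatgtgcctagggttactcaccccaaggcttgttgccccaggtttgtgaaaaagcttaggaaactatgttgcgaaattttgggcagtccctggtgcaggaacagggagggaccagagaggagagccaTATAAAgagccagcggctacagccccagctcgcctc
Klf15, chr6:90462326-90462625, plus strand: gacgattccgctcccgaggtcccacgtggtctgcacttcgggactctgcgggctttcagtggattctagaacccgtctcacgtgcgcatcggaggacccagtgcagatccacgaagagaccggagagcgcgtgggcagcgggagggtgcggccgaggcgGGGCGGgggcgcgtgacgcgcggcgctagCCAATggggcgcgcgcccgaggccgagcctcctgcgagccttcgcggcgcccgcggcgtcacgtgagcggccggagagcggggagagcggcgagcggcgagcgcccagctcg
Sgk1, chr10:21991973-21992272, plus strand: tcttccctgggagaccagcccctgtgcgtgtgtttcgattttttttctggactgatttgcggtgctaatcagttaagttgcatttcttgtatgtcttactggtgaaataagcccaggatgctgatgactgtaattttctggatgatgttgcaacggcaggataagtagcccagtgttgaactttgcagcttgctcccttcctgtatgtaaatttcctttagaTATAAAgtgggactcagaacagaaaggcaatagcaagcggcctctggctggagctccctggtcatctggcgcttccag
Jun, chr4:95052173-95052472, minus strand: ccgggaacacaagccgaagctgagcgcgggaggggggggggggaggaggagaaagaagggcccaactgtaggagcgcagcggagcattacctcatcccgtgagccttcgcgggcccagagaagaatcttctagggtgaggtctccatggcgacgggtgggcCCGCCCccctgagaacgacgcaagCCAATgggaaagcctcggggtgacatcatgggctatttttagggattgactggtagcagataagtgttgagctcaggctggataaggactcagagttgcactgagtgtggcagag

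The Alb sequence ends before its domain, which begins at 90461123 and was assigned by the 1 kb rule, and at Sult2a8 the H3K4me3 peaks reached 0 bp before the gene start in KO and 8 bp in WT. The first 3 sequences had GC contents of 36.0%, 40.0% and 53.3% and CpG observed over expected ratios of 0.206, 0.272 and 0.141. Klf15 had 73.3% GC and a CpG ratio of 1.18, with 1 GGGCGG and 1 CCAAT. Sgk1 had 46.7% GC, a low CpG ratio of 0.370 and a TATAAA that began 28 bases before its start, and was 1 of 3 promoters in its domain. Jun had 60% GC and a CpG ratio of 0.594. Across the 1218 promoters of the table whose gene start lay in 1 of 762 broad domains, the median GC content was 64.7% and the median CpG ratio 0.812, against 62.0% and 0.80 in the 10228 promoters of the other shared regions and 53.0% and 0.387 in all 32619 promoters. GGGCGG, the core of the SP and KLF factor motif, was found in 67.4% of the promoters in broad domains, against 68.0% in other shared regions and 35.9% of all promoters. TATAAA was found in 8.62%, against 5.87% and 13.7%. CCAAT was found in 38.1%, against 38.1% and 37.6%. The nuclear receptor element AGGTCA was found in 13.7%, against 11.2% and 16.2%, and AGGGGGC from the CTCF core in 17.7%, against 16.6% and 10.7%. The 17 promoters in domains at least 2-fold narrower in KO had a median GC content of 59.0% and a CpG ratio of 0.461, and 6 of them held GGGCGG.

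The domains were wider in WT, the genotype they were chosen in. H3K4me3 covered a median of 2991 bp of a broad domain in KO (range 701 to 10207), against 3557 bp in WT (range 3001 to 10576). The log2 ratio of KO over WT width had a median of -0.26 (middle 50% from -0.42 to -0.11), against -0.16 over all 12561 shared regions. There was 1 library per genotype, so the widths have no replicate check and no test was made. Of the 999 domains 919 were narrower in KO, 79 wider and 1 equal. The choice on WT width sets part of that count. Chosen instead by KO width of at least 3000 bp, 79.8% of 519 domains were narrower in KO with a median of -0.12, and chosen by the mean width 87.0% were narrower with a median of -0.18. The KO list also covered less of the genome, 19.1 Mb against 21.7 Mb in WT, a log2 ratio of -0.19, and with widths divided by the covered length of each list 61.0% of the domains were narrower and the median was -0.07. Sequencing depth is unknown from peak lists, so the part of depth in this difference was not tested.

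**Figure D1:**
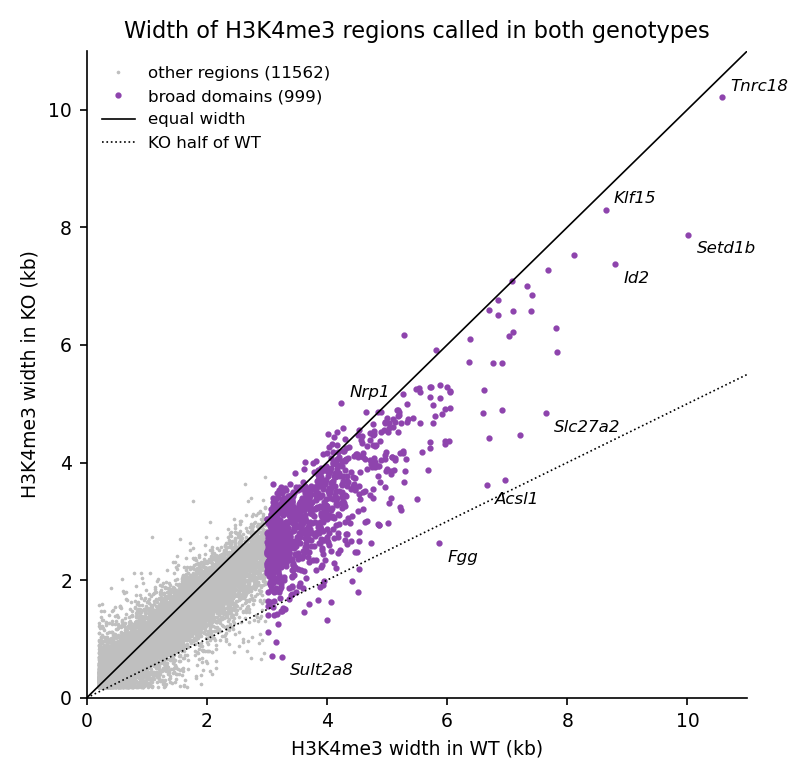
H3K4me3 width per region in KO (vertical axis, kb) against WT (horizontal axis, kb) for the 12561 regions called in both lists, with the 999 broad domains in purple and the 11562 others in grey. The solid line marks equal width and the dotted line a KO width 2-fold below WT. Most purple points lie just under the line of equal width, Tnrc18 and Klf15 lie near it, and Sult2a8, Fgg and 22 others lie on or under the dotted line.

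Narrowing took the form of both shorter ends and gaps. In WT 898 of the domains were a single peak, against 504 in KO, and 428 domains that were 1 peak in WT were split into several in KO. So were 1660 of the 11673 shared regions that were 1 peak in WT. Among the 2650 shared regions of at least 2000 but under 3000 bp in WT it was 510 of 2465. The span between the outermost peak ends was shorter in KO in 873 domains (87.4%), against 84.8% of those 2650 and 69.9% of all shared regions. Together the domains held 16.6% of all H3K4me3 base pairs in KO (3.17 Mb) and 17.7% in WT (3.84 Mb). In KO 494 of them still reached 3000 bp. At the border of the rule, the members with the least WT width were an interval with no gene at chr10:68133990-68136990 (2274 bp in KO and 3001 bp in WT) and Dennd5b (3038 bp in KO and 3001 bp in WT). Just outside it were Mpc1 (2993 bp in KO and 2996 bp in WT) and Nup153 (2292 bp in KO and 2995 bp in WT).

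The widest domain in either genotype lay at Tnrc18. This gene, which encodes a nuclear protein that recognises a repressive histone mark, had 10207 bp in KO and 10576 bp in WT. Setd1b, a methyltransferase that itself lays down H3K4 methylation, had 7873 bp in KO and 10016 bp in WT. Id2, an inhibitor of basic helix-loop-helix factors, had 7369 bp in KO and 8798 bp in WT. Klf15, a glucocorticoid and fasting responsive factor of amino acid and glucose metabolism, had 8298 bp in KO and 8639 bp in WT. The next in WT order were Slc7a2, a cationic amino acid transporter (7521 bp in KO, 8106 bp in WT), Bcl9l, a cofactor of Wnt signalling (5876 bp in KO, 7823 bp in WT), and Onecut2, a liver transcription factor (6284 bp in KO, 7809 bp in WT). Irf2bp2, a transcriptional corepressor, had 7276 bp in KO and 7683 bp in WT. Slc27a2, a fatty acid transporter and very long chain acyl-CoA synthetase, stood out among the 12 with the largest narrowing, 4846 bp in KO against 7640 bp in WT, a log2 ratio of -0.66. An interval with no protein-coding gene start at chr7:70355777-70363340 had 6850 bp in KO and 7420 bp in WT. Nfib, a nuclear factor I gene, had 6582 bp in KO and 7398 bp in WT, and Sgk1, a kinase induced by glucocorticoids, had 7002 bp in KO and 7323 bp in WT. Bcl9l was 1 peak in WT and 7 in KO. Ctcf and Pparg themselves were not members: the Ctcf region had 2366 bp in KO and 2522 bp in WT, and the Pparg region 827 bp in KO and 985 bp in WT. The Setd1b, Slc7a2, Bcl9l, Onecut2 and Nfib domains were assigned by a gene end, since no strand was at hand for these genes.

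Domains at least 2-fold narrower in KO numbered 24, or 2.40% of the 999, against 4.28% of all shared regions, and 0 broad domains were at least 2-fold wider, against 2.46% of all shared regions. The shares are below the background, and the rule used these widths, so nothing is read from them. Sult2a8, a hepatic sulfotransferase, had 701 bp in KO and 3249 bp in WT, the largest log2 change at -2.21. Ces3a, a carboxylesterase, had 715 bp in KO and 3092 bp in WT, and Akr1c14, an aldo-keto reductase, had 941 bp in KO and 3148 bp in WT. Ppp1r3c, which brings protein phosphatase 1 to glycogen, had 1316 bp in KO and 3997 bp in WT. Next came an interval with no gene start at chr7:49523503-49526516, with 1123 bp in KO and 3014 bp in WT. Others among the 24, named after their values were seen, were Ugt2b5 and Cyp3a11 of drug metabolism, Cyp4a14, a fatty acid hydroxylase and target of PPARa, and Sardh and the shared domain of Bhmt2 and Dmgdh, all of choline and glycine breakdown. Carboxylesterase, sulfotransferase, cytochrome P450 and UGT genes have close copies in tandem, so reads of these domains may be shared between paralogs.

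The largest gains were small. Nrp1, a receptor for semaphorins and VEGF, had 5013 bp in KO and 4236 bp in WT, a log2 ratio of 0.24. Msl1, a scaffold of a histone acetyltransferase complex, had 3639 bp in KO and 3095 bp in WT. Trim8, a ubiquitin ligase, had 6160 bp in KO and 5284 bp in WT, Hlx, a homeobox factor, had 4483 bp in KO and 4015 bp in WT, and Jag1, a Notch ligand, had 3589 bp in KO and 3240 bp in WT.

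Gene lists of the liver differed in how many members had a broad domain and how much it narrowed. 18 of 26 hepatocyte transcription factors (69.2%) had a broad domain, as did 17 of 26 genes of glucose, insulin and growth hormone action (65.4%) and 21 of 34 immediate early and early response genes (61.8%), against 5.01% of all protein-coding genes. Only 11066 of the 21627 protein-coding genes had a shared region of any width, and 1083 of those had a broad domain. In these 3 lists 26 of 26, 25 of 26 and 34 of 34 genes had a shared region. The shares were 13 of 26 for secreted plasma proteins, 8 of 18 for the circadian clock, 9 of 26 for PPAR, fatty acid and lipid droplet genes, 7 of 26 for fatty acid, sterol and bile acid synthesis, 7 of 26 for CTCF, cohesin and the H3K4 methylation machinery, and 4 of 20 for housekeeping genes. None of 22 Polycomb type developmental genes, 12 Kupffer cell, 12 endothelial, 12 stellate, 12 lymphocyte and 12 neural stem cell markers had one (0 in each list), and 1 of 10 cholangiocyte markers did. The lists were not tested as sets.

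Plasma protein genes had the most narrowed domains, with a median log2 width ratio of -0.51 over 13 domains, all narrower in KO and 4 of them at least 2-fold. Of all 999 domains 92.0% were narrower in KO and 2.40% at least 2-fold, with a median of -0.26. Fgg, the gamma chain of fibrinogen, had 2632 bp in KO and 5865 bp in WT. Cp, the copper carrier ceruloplasmin, had 3001 bp in KO and 4661 bp in WT. Ahsg, the carrier fetuin, had 2197 bp in KO and 4534 bp in WT, while Apoe, the ligand of lipoprotein remnants, was close to equal with 4081 bp in KO and 4343 bp in WT. Alb itself, whose promoter drives the Cre transgene, had 1601 bp in KO and 3700 bp in WT, and complement C3 had 1402 bp in KO and 3119 bp in WT. The 7 domains of fatty acid, sterol and bile acid synthesis had a median of -0.47. Among them were Slc10a1, the bile acid importer (3618 bp in KO, 4254 bp in WT), Dgat2, which makes triglycerides (3517 bp in KO, 4023 bp in WT), and Cyp8b1, a sterol hydroxylase (2257 bp in KO, 3910 bp in WT). Cyp7a1, which controls the first step from cholesterol to bile acids, was among the 24 with 1533 bp in KO and 3273 bp in WT.

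Hepatocyte transcription factors had a median of -0.30, and 16 of the 18 were narrower in KO, against 92.0% of all broad domains. The widest were Onecut2, Gata6 (6157 bp in KO, 7027 bp in WT), Prox1 (5690 bp in KO, 6916 bp in WT) and Cebpa (5290 bp in KO, 5999 bp in WT), and none of the 18 was 2-fold narrower. Hnf4a, the central nuclear receptor of the hepatocyte, had 3192 bp in KO and 5225 bp in WT, whereas Ppara, the fatty acid sensor of fasting, was among the 79 wider domains with 3818 bp in KO and 3464 bp in WT. Next to it an interval with no gene start at chr15:85738265-85741876 had 1460 bp in KO and 3612 bp in WT. In the glucose, insulin and growth hormone list all 17 were narrower, near the 92.0% of all broad domains, with a median of -0.32. Foxo3 (5099 bp in KO, 5875 bp in WT), Bcl6 (4759 bp in KO, 5435 bp in WT) and Fbp1 (4057 bp in KO, 4970 bp in WT) were less narrowed than Pck1, the gatekeeper of gluconeogenesis (3390 bp in KO, 5071 bp in WT). The PPAR and fatty acid list had a median of -0.20 and was uneven. Acsl1, an acyl-CoA synthetase, had 3613 bp in KO and 6657 bp in WT, but Cpt1a of mitochondrial import had 4524 bp in KO and 5010 bp in WT.

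Early response genes had nearly equal widths, with a median of -0.06 and 16 of 21 narrower in KO, against 92.0% of all broad domains. Their widest were Klf15, Sgk1, Klf9 (4927 bp in KO, 6052 bp in WT) and Dusp6 (5284 bp in KO, 5708 bp in WT), and Jun, a subunit of AP-1, had 4301 bp in KO and 4168 bp in WT. Clock genes had a median of -0.16, with Hlf (4802 bp in KO, 5196 bp in WT), Dbp (3684 bp in KO, 4097 bp in WT), Bhlhe40 (4267 bp in KO, 4039 bp in WT) and Nr1d1 (3280 bp in KO, 3672 bp in WT). The machinery list had a median of -0.17, with Setd1b, Yy1 (3332 bp in KO, 3744 bp in WT), Kmt2c (3043 bp in KO, 3638 bp in WT) and Kmt2b (3241 bp in KO, 3314 bp in WT). With widths divided by the covered length of each list these 3 medians turned to 0.12, 0.03 and 0.02. Of all broad domains 61.0% were then narrower, with a median of -0.07. The same scaling moved the median to -0.32 for plasma proteins (11 of 13 narrower), -0.28 for fatty acid, sterol and bile acid synthesis (7 of 7), -0.13 for the glucose, insulin and growth hormone list (14 of 17), -0.11 for hepatocyte factors (12 of 18), -0.02 for the PPAR and fatty acid list (5 of 9) and -0.02 for housekeeping genes (2 of 4). Chosen by KO width instead, the median was -0.32 for plasma proteins (5 domains), -0.25 for the glucose list (8) and -0.21 for fatty acid, sterol and bile acid synthesis (2). It was -0.18 for the PPAR list (6), -0.17 for housekeeping (3) and machinery genes (5) and -0.16 for hepatocyte factors (10). Early response genes had -0.06 (19), clock genes -0.05 (6) and all broad domains so chosen -0.12 (519). With peaks at a −log10 q of at least 10 all 9 medians were lower than with all peaks, from -0.80 for plasma proteins to -0.15 for early response genes, with -0.61 for hepatocyte factors, -0.50 for the glucose list, -0.47 for clock genes and -0.38 for the PPAR list. The median of all broad domains fell as well at this setting, to -0.33 over 936 domains, against -0.26 with all peaks. The 4 housekeeping domains had a median of -0.21: Tbp, shared with Psmb1, had 3514 bp in KO and 4200 bp in WT, B2m 3163 bp in KO and 3557 bp in WT, Gapdh 3456 bp in KO and 3398 bp in WT, and Eef1a1 2609 bp in KO and 3089 bp in WT.

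**Figure D2:**
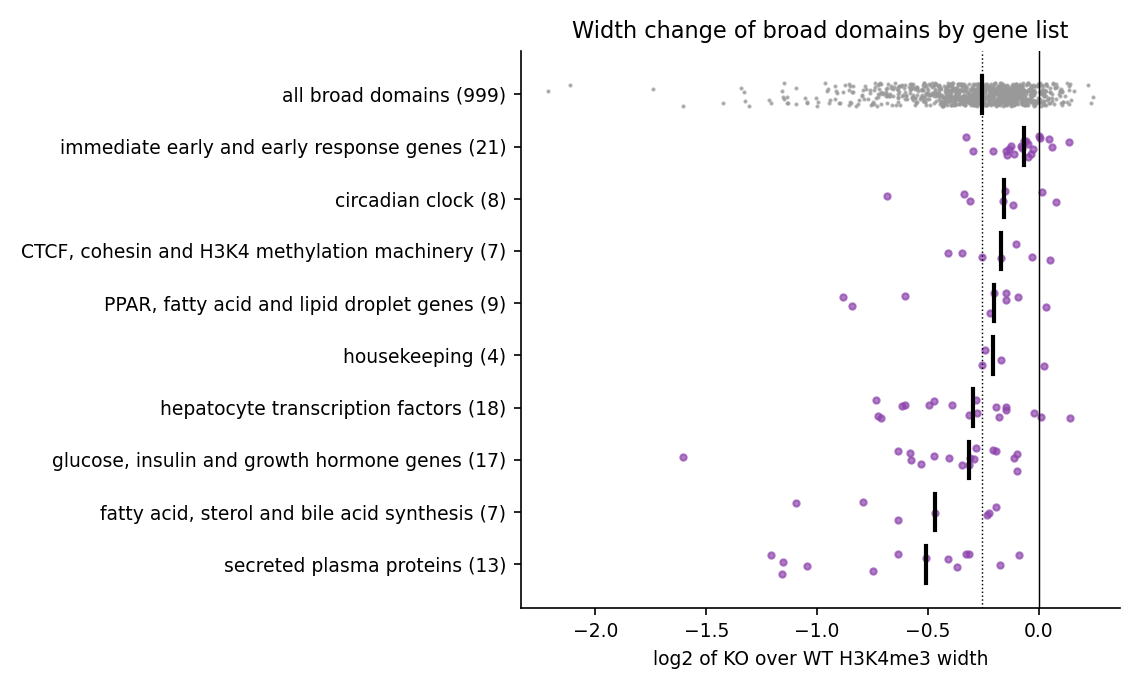
log2 of KO over WT H3K4me3 width (horizontal axis) of all 999 broad domains and of the domains of each gene list with at least 4, 1 point per domain or gene, with black bars at the medians and a dotted line at the median of all broad domains. Early response genes lie nearest to 0 and secreted plasma proteins farthest below it, with medians of -0.06 and -0.51.

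Around the start, the domains reached mainly into the gene. In the 590 domains with a single gene whose strand was known, H3K4me3 downstream of the start covered a median of 2297 bp in KO and 2750 bp in WT, and upstream 732 bp in KO and 914.5 bp in WT. The summed length in KO was 0.828 of WT downstream and 0.831 of WT upstream, so the share lost was alike on both sides. At the start itself 93.2% of these domains were covered in KO and 99.0% in WT, at 2000 bp downstream 64.9% in KO and 84.4% in WT, and at 3000 bp downstream 24.9% in KO and 45.6% in WT. Klf15 reached 7492 bp downstream in KO and 7450 bp in WT. Tnrc18 was the reverse case, with 6299 bp upstream in KO and 6348 bp in WT. Acsl1 had 3366 bp downstream in KO and 6294 bp in WT, while its upstream part was 247 bp in KO and 363 bp in WT.

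**Figure D3:**
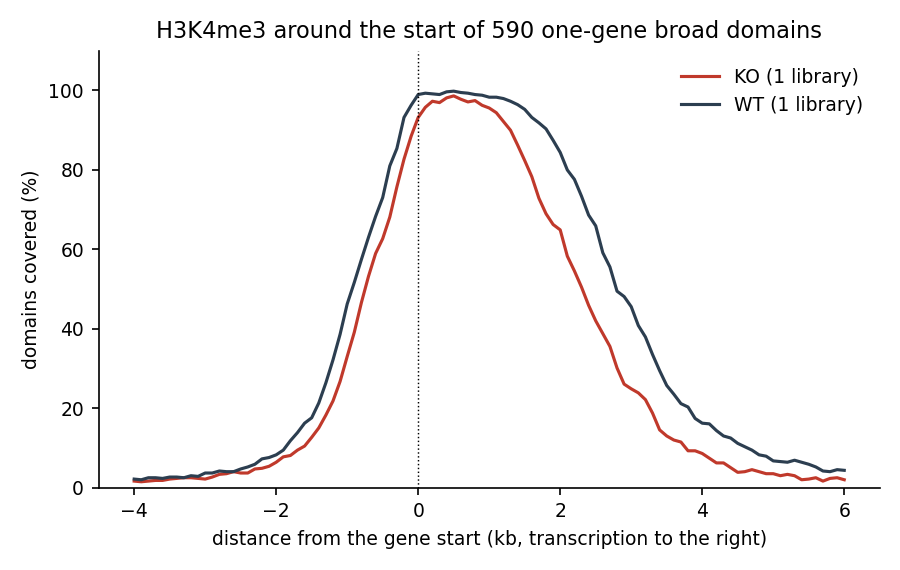
Percentage of the 590 1-gene broad domains covered by H3K4me3 (vertical axis) at each distance from the gene start (horizontal axis, kb, transcription to the right), with 1 library each for KO (red) and WT (dark). Both curves peak just downstream of the start, and the KO curve lies under the WT curve on both sides, by most between 2 and 3 kb downstream.

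H3K27ac was measured as the percentage of each domain, with 2 kb either side, that the peaks of a library covered. Nearly every broad domain was acetylated in every library: 998 of 999 had a peak in all 6, against 87.3% of all shared regions. The regions nearest in width, the 2650 of at least 2000 but under 3000 bp in WT, had one in 99.4%. The H3K27ac lists reach down to a −log10 q near 1. At a −log10 q of at least 5 the mean share of broad domains with a peak was 92.7% in KO and 94.6% in WT. The mean coverage over the 999 domains was 70.6%, 72.2% and 78.8% in KO 2, 3 and 4, against 72.5%, 76.5% and 71.7% in WT 1, 2 and 4. The 2 groups overlapped, at 73.9% ± 4.35 in KO and 73.6% ± 2.60 in WT (SD, n = 3 each, exact two-sided permutation p = 0.9, where 0.1 is the least that 3 against 3 can give). Per domain, limma called 0 of the 933 domains it could test at an adjusted p under 0.05 (0% of 12025 shared regions). The other 66 were covered alike in all 6 libraries. At an unadjusted p under 0.05, 13 domains were higher and 20 lower, against 628 higher and 131 lower of the 12025 regions. Coverage has a ceiling: per library, 62.1% to 79.4% of broad domains, flanks left out, were fully covered, against 35.4% to 58.8% of all shared regions. Without flanks limma could test only 550 of the domains. The part of this ceiling in small differences and in the 0 calls was not tested. The median difference of KO minus WT was 0.29 percentage points in broad domains, against 2.59 in all shared regions tested. Its sign depended on single libraries: it was -1.61 points without KO 4, -0.53 without WT 4, -0.09 without WT 1, 0.94 without KO 3, 1.63 without WT 2 and 1.80 without KO 2. The split at an unadjusted p under 0.05 was 8 higher and 46 lower without KO 4, and 25 higher and 11 lower without KO 2. In 35 domains (3.50%) all KO libraries lay above all WT libraries, against 8.16% of all shared regions, and in 33 (3.30%) all lay below, against 1.75%.

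Single domains varied more than the mean. C3 was covered to 67.4%, 71.9% and 67.3% in KO 2, 3 and 4, against 86.2%, 83.1% and 74.2% in WT 1, 2 and 4, so that all KO values were below all WT values (difference -12.3 points ± 4.76 SE, limma adjusted p = 0.771). Jun went the other way, with 68.4%, 64.7% and 78.9% in KO 2, 3 and 4 against 60.5%, 58.8% and 52.6% in WT 1, 2 and 4 (difference 13.4 points ± 5.66 SE, limma adjusted p = 0.783). Gata6 and Bcl9l also had all KO values above all WT values, with differences of 7.48 and 6.52 points and limma adjusted p of 0.812 for both. Fgg had 80.1%, 51.9% and 69.2% in KO against 77.2%, 84.8% and 88.6% in WT, and here KO 2 lay within the WT range. The largest loss with groups that did not overlap, named after its values were seen, was at Gfra1 (-23.0 points, limma adjusted p = 0.584), which did not pass the test.

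The domains that narrowed most were more acetylated than the rest in both genotypes. The 24 domains at least 2-fold narrower in KO had a mean H3K27ac coverage of 73.9%, 76.8% and 83.3% in KO 2, 3 and 4, against 81.4%, 86.6% and 82.4% in WT 1, 2 and 4, and KO 4 lay within the WT range. In the 79 wider domains the coverage was 71.7%, 71.9% and 79.1% in KO, against 70.1%, 74.7% and 69.5% in WT. Across the 999 domains the log2 width ratio and the H3K27ac difference had a Pearson r of 0.27 and a Spearman rho of 0.23, and r was 0.22 and rho 0.18 without KO 4 and WT 2, the libraries that carry the same numbers as the H3K4me3 ones. Domains are not replicates of a genotype, and these values describe the 2 sets of lists alone.

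**Figure D4:**
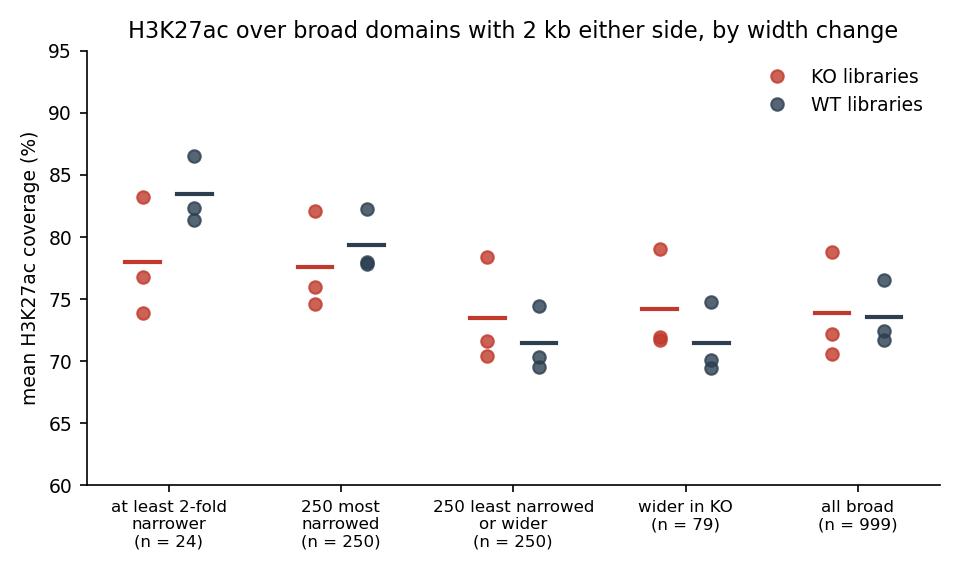
Mean H3K27ac coverage (vertical axis, %) of each KO (red) and WT (dark) library over broad domains grouped by their width change, with bars at the means of 3 libraries and the number of domains under each group. KO libraries sit lower than WT libraries in the 24 most narrowed domains, apart from KO 4 at 83.3%, and both genotypes overlap in all 999.

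PPARg peaks were common in broad domains. The share of domains with a peak was 71.1% and 68.0% in KO 7 and KO 8, against 57.4% and 58.3% in WT 2 and WT 4. In the 11562 other regions the shares were 24.95% and 23.4% in KO 7 and KO 8, against 17.4% and 16.8% in WT 2 and WT 4. A wider region has more room for a peak, and these 2650 regions nearest in width had shares of 40.3% and 38.3% in KO and 28.9% and 28.2% in WT. Over broad domains the mean share was 69.5% ± 2.19 in KO and 57.8% ± 0.64 in WT (SD, n = 2 each), and both KO libraries lay above both WT libraries (exact permutation p = 0.33, the least that 2 against 2 can give). Among the libraries made by tagmentation alone the shares were 71.1% and 68.0% in KO 7 and KO 8, against 57.4% in WT 2, and WT 4 of the ligation kit, called with a lower minimum of −log10 q, lay beside WT 2 at 58.3%. The minimum was 1.31 in WT 4 and 3.00 in WT 2, so their likeness is no check of the kit. With all lists at a −log10 q of at least 10 the mean share was 43.4% in KO and 27.6% in WT. The KO lists covered 20.8 and 21.1 Mb of the genome, against 8.99 Mb in WT 2 and 6.90 Mb in WT 4. With each list trimmed to the same covered length by its highest −log10 q, the share was 21.1% in KO and 50.2% in WT, so the direction turned.

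Peaks were called in all 4 PPARg libraries in 455 domains, in both KO and neither WT library in 83 (8.31%, against 4.83% of all shared regions), in both WT and neither KO library in 18 (1.80%, against 0.756%), in another mix in 249 and in none in 194. In the 2650 regions nearest in width the KO-only share was 7.51% and the WT-only share 0.830%. Without KO 8 the domains called in KO alone were 128, without WT 4 130 and without WT 2 131, and those called in WT alone were 28 to 35 when any 1 library was left out. On the percentage of each domain covered by PPARg peaks, limma called 0 of 805 broad domains at an adjusted p under 0.05 (0% of 4506 regions), with 205 higher and 12 lower at an unadjusted p under 0.05 and a lowest adjusted p of 0.0983. The median difference was 9.47 percentage points, against 9.56 in all regions tested. With lists of equal covered length the coverage turned as well, with 34 domains higher and 134 lower of 607 at an unadjusted p under 0.05, 0 called at an adjusted p and a median difference of -4.62 points.

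At Slc27a2 PPARg peaks covered 4726 and 5134 bp in KO 7 and KO 8, against 2183 and 2085 bp in WT 2 and WT 4, and both KO values lay above both WT values (limma adjusted p = 0.0989). This domain was narrower in KO, so a longer PPARg peak came with a shorter H3K4me3 domain there. Klf15 had 5172 and 3936 bp in KO 7 and KO 8, against 3169 and 2801 bp in WT 2 and WT 4. Fbp1 had 2272 and 2220 bp in KO, against 816 and 758 bp in WT (limma adjusted p = 0.0999). Hnf4a, Alb and Ces3a were among the 83 domains called in KO alone: Hnf4a had 697 and 1157 bp in KO, against 0 bp in both WT libraries, while Alb had 1 and 50 bp in KO, the edge of a peak. Setd1b, Bcl9l and Dgat2 were covered in all 4 libraries. Id2 had 2389 and 415 bp in KO 7 and KO 8, against 2662 and 725 bp in WT 2 and WT 4, and Angptl4, a classic PPAR target, had 2484 and 2611 bp in KO, against 3019 and 2473 bp in WT. In both the groups overlapped. Tnrc18, Sgk1, Hlx and Jag1 had no PPARg peak in any library, listed as 0 bp.

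In the 24 domains at least 2-fold narrower in KO, PPARg peaks covered 28.0% and 30.6% in KO 7 and KO 8, against 17.3% and 9.28% in WT 2 and WT 4. In the 250 most narrowed domains the mean coverage was 28.7% and 28.9% in KO, against 17.4% and 12.6% in WT, and in all 999 it was 21.2% and 20.5% in KO, against 14.0% and 9.79% in WT. These coverages come from the full lists. With lists of equal covered length the median difference over 607 broad domains was -4.62 points. Of the 250 most narrowed domains 143 were called in all 4 libraries, against 92 of the 250 least narrowed or wider. The median log2 width ratio of broad domains was -0.30 with PPARg in all 4 libraries and -0.22 with PPARg in none. In the 2650 regions nearest in width it was -0.26 and -0.20, and in all shared regions -0.29 and -0.12. These medians were not tested.

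**Figure D5:**
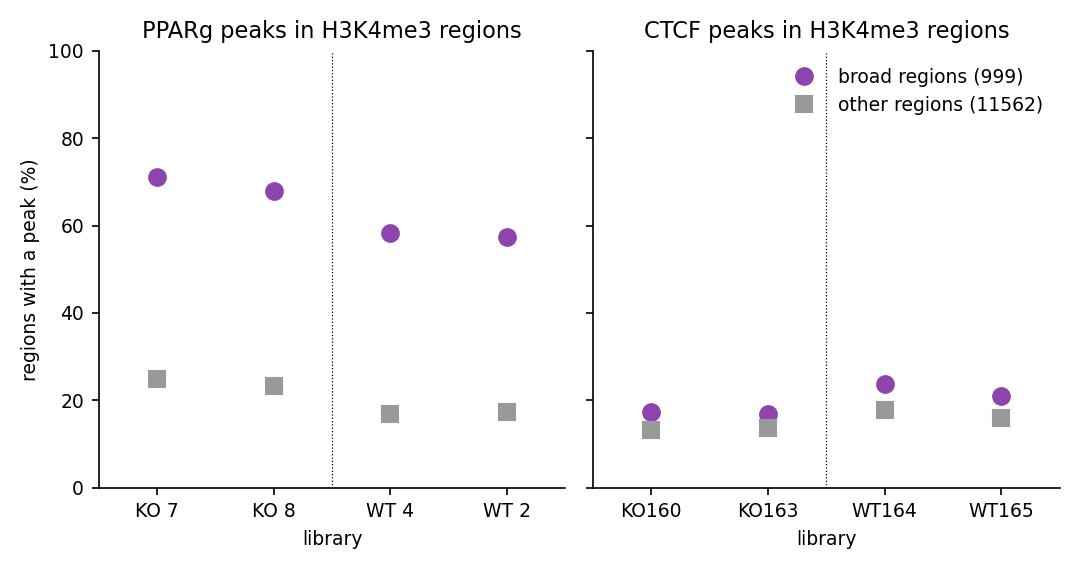
Percentage of broad domains (purple circles) and of other shared H3K4me3 regions (grey squares) with a PPARg peak (left) or a CTCF peak (right) in each library, KO left of WT. For PPARg the circles stand at 57.4% to 71.1% and the squares at 16.8% to 24.95%, and for CTCF the circles stand at 16.9% to 23.8%, just above the squares.

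CTCF peaks lay in a minority of broad domains and were fewer in KO. The share of domains with a CTCF peak was 17.3% and 16.9% in KO160 and KO163, against 23.8% and 21.0% in WT164 and WT165, and both KO libraries lay below both WT libraries. The mean was 17.1% ± 0.28 in KO and 22.4% ± 1.98 in WT (SD, n = 2 each, exact permutation p = 0.33, the least possible), against 13.8% in KO and 17.4% in WT over all shared regions. The 4 CTCF lists covered 11.8 and 13.9 Mb in KO, against 19.6 and 14.4 Mb in WT, and trimmed to equal length the share was 14.5% in KO and 11.7% in WT, which turned the direction. CTCF was called in all 4 libraries in 133 domains, in both WT and neither KO library in 28 (2.80%, against 1.55% of all shared regions), in both KO and neither WT library in 1, at Acbd5 (0.1%, against 0.0876%), in another mix in 101 and in none in 736. The WT-only share was 1.89% in the 2650 regions nearest in width. Without KO160, KO163 or WT165 the WT-only count was 48, 44 or 54. The KO-only count was 6 without KO160, 7 without KO163, 5 without WT164 and 3 without WT165. On coverage limma called 0 of 263 broad domains (0% of 2544 regions), with 2 higher and 26 lower at an unadjusted p under 0.05 and a median difference of -2.17 points. With lists of equal covered length 4 were higher and 0 lower of 195 at an unadjusted p under 0.05, 0 were called at an adjusted p and the median difference was 1.54 points.

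Domains with CTCF peaks in all libraries were less narrowed than those without, and so were the regions nearest in width. The 133 domains with CTCF in all libraries had a median log2 width ratio of -0.18, the 28 with CTCF in WT alone -0.26, and the 736 without CTCF -0.28. In the 2650 regions nearest in width the medians were -0.18 with CTCF in all libraries and -0.22 without. In all shared regions they were -0.14 and -0.17. These medians were not tested. Counting only CTCF peaks within 1 kb of a domain edge, on either side of it, the medians were -0.19 for 128 domains with CTCF in all libraries, -0.23 for 26 in WT alone and -0.27 for 745 without. None of the 24 domains at least 2-fold narrower in KO had a CTCF peak in any of the 4 libraries (0 of 24). In the 79 wider domains 51 had none, and in all 999 736 had none. Trim8, one of the 5 largest gains, was among the 28 with CTCF in WT alone, with 1 peak each in WT164 and WT165 and 0 in both KO libraries. Among named domains Sgk1, Nrp1, Jag1, Cebpa, Gata6, Bcl6, Bcl9l and Kmt2b had CTCF in all 4 libraries.

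H3K27me3, with 1 library per genotype and no test, was nearly absent from broad domains, with 3 of 999 overlapped in KO (0.300%) and 3 in WT (0.300%), against 0.701% and 0.581% of all shared regions. In the 2650 regions nearest in width the shares were lower still, 0.189% in KO and 0.226% in WT. At Hlx it covered 508 bp in KO and 0 bp in WT, at Spry2, an inhibitor of receptor kinases, 0 bp in KO and 986 bp in WT, and at Bmp2, a secreted growth factor, 0 bp in KO and 693 bp in WT. The other 2 lay at intervals with no gene, with 150 bp in KO and 0 bp in WT on chromosome 2 and 1324 bp in KO and 603 bp in WT on chromosome 18. With a −log10 q of at least 3 the counts were 0 in KO and 0 in WT.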

How the data were processed

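Of the 18 ChIP-seq libraries, each deposited as 1 peak list, all were used. Tools listed in the submitters' processing notes are MACS2 2.1.2, deepTools 3.1.3, BWA 0.7.12 and Picard 1.77, and the build is mm10. The control for peak calling is not given in the sources used here. Each deposited peak carries the authors' enrichment ratio, its −log10 q beside its −log10 p, and a whole-number score. The deposited score was not used. The lowest deposited −log10 q was near 1 for H3K27ac and H3K27me3, 1.3 for H3K4me3 and PPARg WT 4, and 3 for the other lists. The labels of the ligation libraries give liver as tissue but a growth protocol for neural stem cells.

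H3K4me3 intervals, listed by summit (41145 lines in KO, 43544 in WT), were collapsed to 17395 and 16330. Widths are base pairs covered per merged region. Coverage of regions by other peaks was fitted with limma 3.58.1 in R 4.3.3 (trend, Benjamini-Hochberg adjusted p under 0.05) over all shared regions that varied. Shares per library were compared by an exact permutation test over libraries in Python 3.11.15. Labels do not say that libraries came from separate animals, so p-values measure the spread between these libraries, which may be technical. The peak lists hold no depth, so precision is limited by how few libraries there are. Gene starts and promoters came from RefSeq tables of GRCm38.p6, the assembly of mm10. Strand was known for 17273 of 21627 protein-coding genes, and either end was used for the others. All 320 entries of the 16 gene lists matched a gene. The scripts were tested on simulated data.

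Named are the 12 widest domains, the 5 largest gains and losses of width, up to 4 members per list by WT width, the domains at the width border, Ctcf and Pparg. Some named domains are not reported here. Further names were chosen after their values were seen. The members and lists were chosen with earlier results of these data known. Alternatives were the width minimum, the −log10 q minimum, lists of equal covered length, windows, overlap rules, a replicate block and leaving out each library.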

Additional observations from a re-analysis of the deposited data

How the results depend on the processing

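Membership was 3649 domains at 2000 bp, 302 at 4000 bp and 519 by KO width. The share narrower in KO was 88.4% at 2000 bp, 93.7% at 4000 bp, 93.4% with peaks at a −log10 q of at least 10, 79.8% when chosen by KO width, 87.0% by mean width and 61.0% with widths divided by list length. That scaling turned the list medians of early response (0.12), clock (0.0275) and machinery genes (0.0174).

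The limma calls for PPARg depended on the setting. At a −log10 q of at least 10, 61 domains were higher in KO. With 2 kb either side, 206 were higher and 1 lower. Leaving out 1 library gave 0 to 174 higher and 0 to 7 lower for PPARg, and 0 to 1 higher and 0 to 56 lower for CTCF, with the lone library assumed to vary like the others. H3K27ac stayed at 0 calls in each alternative run.

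PPARg in KO alone was 7 domains with lists of equal covered length and 105 to 131 over the libraries left out. PPARg in WT alone was 2 at −log10 q of at least 10, 189 at equal length and 28 to 35 over the libraries left out. PPARg in all 4 was 188 and 160 at those 2 settings. CTCF in KO alone was 0 at −log10 q of at least 10, 7 at equal length, 2 with 2 kb either side and 3 to 7 over the libraries left out. CTCF in WT alone was 1 at equal length and 35 to 54 over the libraries left out. CTCF in all 4 was 65, 79 and 207 at those 3 settings. At equal length the difference in share of KO minus WT was -29.1 points for PPARg, 2.75 for CTCF and -0.13 for H3K27ac, and H3K27ac gave -1.87 at −log10 q of at least 5. H3K27me3 had 0 and 0 domains at −log10 q of at least 3. The cause of these differences was not tested.

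H3K27ac libraries share the numbers 2 and 4 between genotypes. Same-numbered libraries had correlations of deviations of -0.05 and -0.11, against -0.06 to 0.10 in pairs with unlike numbers. So few pairs cannot tell whether same-numbered libraries share more than a number. With the number as a replicate block limma called 0 higher and 0 lower, with 4 and 8 at an unadjusted p under 0.05. The median difference was then 0.40 points. Of the alternatives for the main results, membership included, 93 were counted as unchanged, 47 as moved and 4 as turned. For the share of domains with a peak only the direction was compared, not the size. Counts of 0 that stayed at 0 are among the unchanged.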
